A study of Homo sapiens with 2 samples.

Results

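The peaks described here are the antibody-enriched regions that the deposited annotation placed outside genes but close to one. They carry the label Distal Intergenic, lie under 50 kb from the start of the gene assigned to them, and have their summit outside 10 windows of 1 Mb that hold unusually many intergenic peaks. Of the 39801 peaks, 3266 met this rule, or 8.21% (95% Wilson interval 7.94% to 8.48%). Another 3273 intergenic peaks lay 50 kb or more from a gene start, and 439 lay in the dense windows. The rule used position and annotation only, and no enrichment value entered it. The position of a peak within this range, its side of the gene and its distance were bounded by the rule: no peak lay closer than 3013 bp to a start, because the annotation calls such peaks promoter peaks.

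N6-methyladenosine (m6A) was measured by m6A-seq in HCCLM3, an established human hepatocellular carcinoma line of wild-type genotype, from total RNA. The antibody-captured RNA (m6A-RIP) gave 1 library and the RNA before capture (m6A-Input) gave 1 library, with no replicate, no second condition and no treatment named in the labels. The design text places the experiment in work on CRTC2 and YTHDF2 in the fate of methylated mRNA. All intervals below stay within these 2 libraries: those on folds cover counting error, and those on shares take each peak as independent. None covers variation between libraries, and PCR copies were not told apart.

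In messenger RNA, m6A is written mainly by the METTL3-METTL14 complex within a short sequence context whose commonest core is GGAC, and it is read by YTH-domain proteins such as YTHDF2, which promotes mRNA decay. The mark is known to be dense around stop codons and in 3' UTRs. RNA from outside annotated genes can come from long non-coding RNAs, from transcripts that run past a gene end, from divergent transcription before a start, or from gene models that one annotation holds and another lacks. A captured fragment needs RNA at that position, and antibody capture also brings down some unmethylated RNA.

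Sequence was at hand only for the few peaks that reach a promoter window around a RefSeq transcript start. A peak that overlaps a window need not reach the start itself. Of 35116 RefSeq promoter windows of 300 bases (GRCh38.p14, 250 before to 50 after a start), 13 were overlapped by 12 of the intergenic peaks, and 5 of those peaks had a q-value under 0.05. Of these, 3 windows under peaks with such a q-value are shown: 2 from a pair of non-coding genes upstream of PAX8 (a thyroid and kidney transcription factor) whose starts lie close together on opposite strands, where adjacent peaks reached both windows, and 1 that a peak covered in full but that holds no copy of the core. Capitals mark GGAC, and GTCC where GGAC is on the other strand. These letters cannot overlap each other.
LOC105373567, minus strand, chr2:113325487-113325786: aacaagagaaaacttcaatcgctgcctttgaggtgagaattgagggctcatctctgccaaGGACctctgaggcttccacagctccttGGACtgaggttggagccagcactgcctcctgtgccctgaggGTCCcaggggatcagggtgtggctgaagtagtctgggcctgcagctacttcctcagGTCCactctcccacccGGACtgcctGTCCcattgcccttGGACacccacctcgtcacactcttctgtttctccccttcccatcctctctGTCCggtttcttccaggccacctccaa
LINC02966, plus strand, chr2:113324788-113325087: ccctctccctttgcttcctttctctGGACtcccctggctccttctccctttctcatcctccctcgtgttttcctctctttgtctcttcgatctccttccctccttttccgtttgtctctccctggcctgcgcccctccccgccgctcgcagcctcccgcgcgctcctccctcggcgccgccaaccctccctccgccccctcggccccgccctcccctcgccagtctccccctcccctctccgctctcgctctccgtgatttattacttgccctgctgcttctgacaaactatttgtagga
PCHILR, plus strand, chr16:74313087-74313386: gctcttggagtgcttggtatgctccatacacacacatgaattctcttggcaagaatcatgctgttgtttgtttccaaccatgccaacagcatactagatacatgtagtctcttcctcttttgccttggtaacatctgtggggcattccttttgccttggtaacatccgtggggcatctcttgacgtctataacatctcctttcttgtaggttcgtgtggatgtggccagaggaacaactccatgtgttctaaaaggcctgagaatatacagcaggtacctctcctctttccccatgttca

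The LOC105373567 window, which lay whole inside its peak, held 4 copies of GGAC and 4 of GTCC, and the summit was at base 226 counted from its 5′ end. That peak (chr2:113325189-113325818) had 32 RIP fragments over an input level of 1.18, a fold of 9.86 (6.89 to 13.7). The neighbouring LINC02966 window held 1 GGAC, and its peak (chr2:113324524-113324901) had 10 RIP fragments over an input level of 0.592, a fold of 4.66 (2.56 to 8.04). The PCHILR window held no copy on either strand, and its peak (chr16:74313018-74313737), assigned to the proteasome subunit gene PSMD7, had 54 RIP fragments over an input level of 3.26, a fold of 8.37 (6.35 to 10.9). Of the 13 windows, 9 had GGAC on the printed strand and 11 on either strand, beside 66.3% and 87.4% of all windows of that length. A match is a description of the letters and not of a methylated site.

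Fold here is the authors' per-peak value, the linear ratio of scaled RIP to input at the summit with 1 added to each. The authors give no fragment numbers, but fold and p-value together fixed them. The number of RIP fragments and the input level were recovered for all 39801 peaks. The input level is the local expectation taken from the input library, on the scale of input fragments. Each RIP fragment counted as 0.642, a factor fitted to the folds and p-values. Its inverse, 1.56, would be the ratio of RIP to input library size, which no source used stated. Each interval given with a fold is an exact 95% Poisson interval for the RIP fragments, taking the input level as known.

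Most intergenic peaks rested on few fragments. The median peak had 5 RIP fragments (quartiles 3 to 10) over an input level of 0.296, and a fold of 2.86 (quartiles 2.35 to 3.98, range 1.31 to 17.2). Exactly 3 RIP fragments lay behind 902 peaks (27.6%), and 4 behind 397. One fold, 2.35, was shared by 694 peaks (21.2%), each with 3 RIP fragments over an input level of 0.246, which was the lowest level in the table and stood for 45.3% of the intergenic peaks. A fold of 2.35 in this list is therefore the value of 3 fragments over the lowest input, and its interval runs from 1.12 to 5.32. The peaks were 354 bp wide at the median (quartiles 296 to 492, longest 2965 bp).

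A q-value under 0.05 was reached by 1005 of the 3266 peaks, or 30.8% (29.2% to 32.4%), beside 48.8% of all peaks. A q-value under 1e-5 was reached by 415 peaks, or 12.7% (11.6% to 13.9%), beside 25.8% of all peaks. A fold of 4 or more was found at 815 peaks (25%), beside 33.9% of all peaks, and at most 3 RIP fragments at 1087 peaks (33.3%), beside 21.4% of all peaks. The authors' q-value was 1 at 1235 peaks (37.8%), which then rested on a p-value alone.

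**Figure D1:**
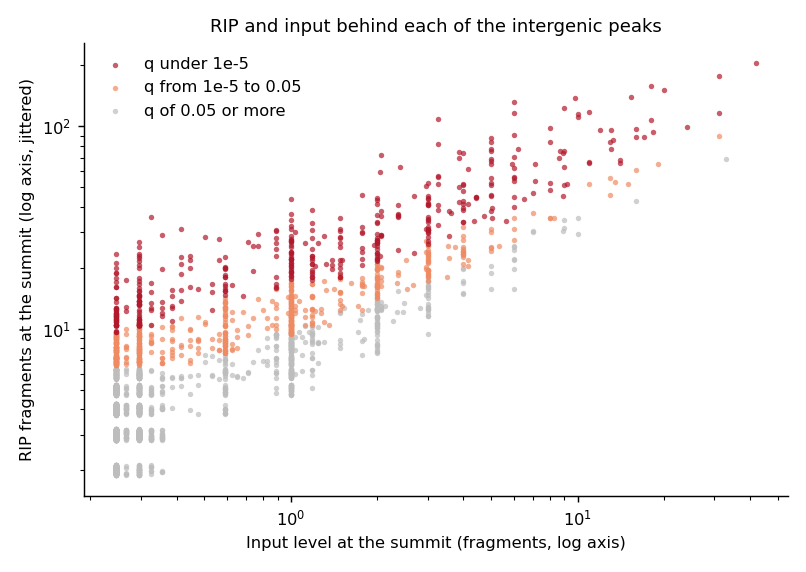
Recovered RIP fragments (vertical, log axis, points moved slightly apart) against the input level at the summit (horizontal, log axis) for each of the 3266 intergenic peaks, coloured by q-value. The peaks with a q-value of 0.05 or more crowd at 2 to 6 RIP fragments over the lowest input levels, and those under 1e-5 have at least 10 fragments.

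Near-gene intergenic peaks were close to distant intergenic and intron peaks in these measures, and far from exon and 3' UTR peaks. The share with a q-value under 0.05 was 30.8% against 27.1% (25.6% to 28.6%) for the intergenic peaks at 50 kb or more, whose interval does not meet that of the near-gene peaks. Intron peaks stood at 33.1%, the intergenic peaks of the dense windows at 39.0%, exon peaks at 69.9% and 3' UTR peaks at 78.6%. The median RIP fragments followed the same order: 5 at near-gene intergenic peaks, against 4 at distant ones, 6 in introns, 23 in exons and 32 in 3' UTRs. The share at the lowest input level ran the other way, at 45.3% against 50.7%, 33.4%, 14.3% and 6.85% in those regions.

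Among the peaks with a q-value under 1e-5, near-gene intergenic peaks had folds close to those of distant intergenic and intron peaks, and a higher median fold than exon and 3' UTR peaks. The 415 near-gene intergenic peaks had a median fold of 6.87 (quartiles 5.85 to 8.20), against 6.59 for distant intergenic, 6.60 for intron, 5.25 for exon and 5.64 for 3' UTR peaks. Their medians were 24 RIP fragments over an input level of 1.18, against 25 over 1.14 at distant intergenic peaks, 25 over 1.48 in introns, 49 over 5.0 in exons and 57 over 5.33 in 3' UTRs. Over a lower input level a peak of few fragments passes the threshold only at a higher fold. The part of the input level in these medians was not tested.

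**Figure D2:**
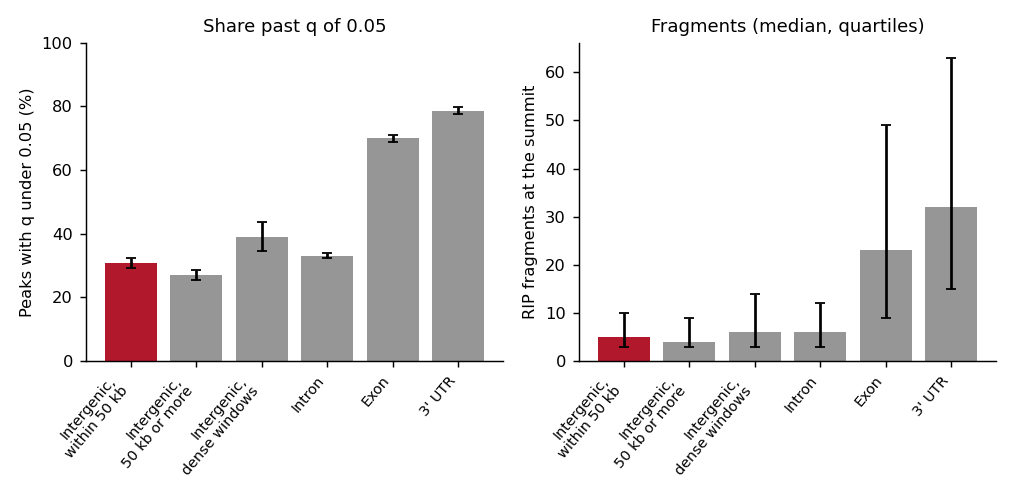
Left, the percentage of peaks with a q-value under 0.05 in each region class, with 95% Wilson intervals; right, the median number of RIP fragments at the summit with quartiles. The near-gene intergenic peaks (red) sit at 30.8% and 5 fragments, next to the distant intergenic and intron peaks and below the exon and 3' UTR peaks.

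Upstream of the assigned start lay 2147 of the peaks, and 1119 (34.3%) lay past the end of the assigned gene. Starts and ends here are those of the deposited annotation. Some downstream peaks, such as those at KCNC4 and ZNF91, lay inside the longer RefSeq body of the same gene. The sides had overlapping intervals: 31.0% of the upstream peaks (29.1% to 33.0%) and 30.3% of the downstream peaks (27.7% to 33.1%) had a q-value under 0.05, and both had a median fold of 2.86. Upstream peaks lay a median of 16545 bp from the start (quartiles 8538 to 29088). Downstream peaks lay a median of 10726 bp past the gene end (quartiles 5062 to 20156, range 11 to 49569), and 47.2% of them were within 10 kb of it. At the 50 kb limit itself, the last peaks inside were assigned to GPC1 (49992 bp, fold 2.07) and MGAT4C (49975 bp, fold 2.35), and the first outside to MCM5 (50020 bp, fold 4.0) and CAPZA3 (50036 bp, fold 2.35).

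**Figure D3:**
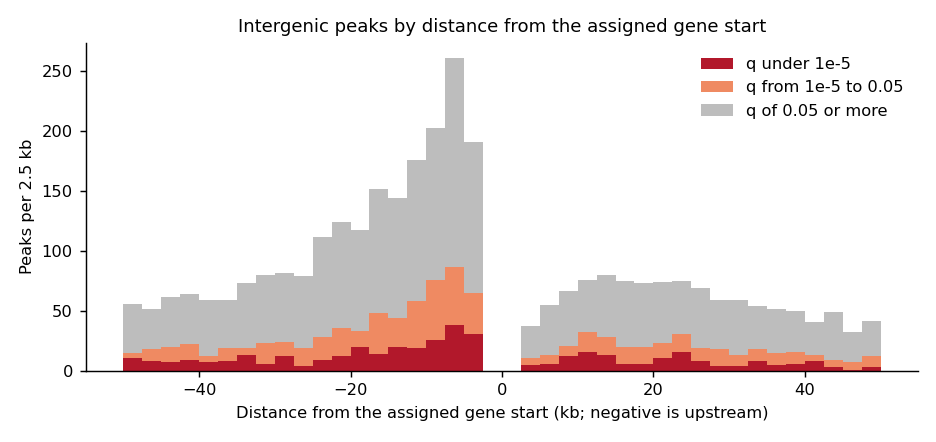
Number of intergenic peaks per 2.5 kb of distance from the assigned gene start (kb, negative is upstream), stacked by q-value. The upstream side is highest within 10 kb, outside the 3 kb that the annotation gives to promoters, while the downstream side, where the gene itself takes up the near distances, is flat and low.

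Past the gene end of the deposited annotation, fewer peaks passed the threshold with distance. Peaks inside a longer RefSeq body of the same gene were counted among them. A q-value under 0.05 was found at 36.9% of 122 peaks within 2 kb of the end, 37.7% of 154 at 2 to 5 kb (30.4% to 45.5%), 32.9% of 252 at 5 to 10 kb, 30.0% of 307 at 10 to 20 kb and 21.5% of 284 at 20 to 50 kb (17.1% to 26.6%). The interval of the farthest bin lay below those of the 3 nearest bins and met that of the bin before it, and the 4 nearer bins overlapped one another. Over the same 5 bins the median number of RIP fragments was 6, 7, 6, 5 and 4, and the share of peaks at the lowest input level was 34.4%, 36.4%, 42.5%, 46.6% and 50.4%. Fragments were fewer with distance, and their part in the decline was not tested. A second count took peaks of either side that lay outside every RefSeq gene, by distance past the nearest RefSeq coding gene end. Its shares were 35.7% of 112, 34.8% of 178, 25.2% of 258, 25.4% of 256 and 29.2% of 383. There the decline did not continue past 10 kb, but the peaks differed as well as the distance. Upstream of the start the shares moved less, between 26.9% at 30 to 40 kb and 35.1% at 5 to 10 kb, with 32.1% at 40 to 50 kb.

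**Figure D4:**
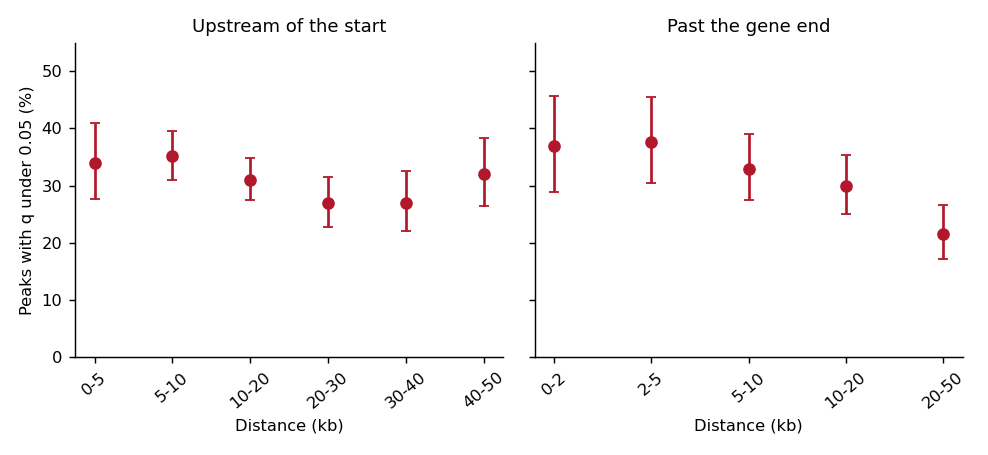
Percentage of intergenic peaks with a q-value under 0.05 by distance (kb) upstream of the assigned start (left) and past the assigned gene end (right), with 95% Wilson intervals. Past the end the percentage is 37.7% at 2 to 5 kb and 21.5% at 20 to 50 kb, while the upstream bins overlap throughout.

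The peaks nearest to a gene end with a q-value under 1e-5 belonged to genes of varied function. They followed SLC25A32, the mitochondrial folate carrier, by 246 bp (25 RIP fragments over an input level of 2.69, fold 4.61, 3.08 to 6.68) and HOXC9, a homeobox factor, by 453 bp (24 over 1.78, fold 5.91, 3.91 to 8.61). The peak 503 bp past ACTR5, a subunit of the INO80 remodeller, had 15 fragments over 0.326 (fold 8.01, 4.82 to 12.7), and the one 538 bp past DHX34, a helicase of nonsense-mediated decay, had 43 over 4.44 (fold 5.25, 3.85 to 7.01). A peak 613 bp past CAV1, the caveolin of membrane caveolae, had the deepest input of them, 117 RIP fragments over a level of 31.1, and the lowest fold, 2.37 (1.97 to 2.84). SLC25A32, ACTR5 and DHX34 also held a 3' UTR peak, while HOXC9, CAV1 and RBM15, which is also among the nearest, held none. Over a part of the downstream peaks, the share whose gene held a 3' UTR peak had overlapping intervals at all distances. It was 29.9% of 137 peaks within 5 kb, 25% of 96 at 5 to 10 kb, 33.3% of 108 at 10 to 20 kb and 29.1% of 79 at 20 to 50 kb. No share over all coding genes was computed beside these, so they cannot be called high or low.

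Many of these peaks were intergenic in the deposited annotation only. Of the 3234 on the main chromosomes, 1116 (34.5%, 32.9% to 36.2%) had their summit inside a gene of the RefSeq table: 413 (12.8%) in a coding gene and 703 (21.7%) in a non-coding gene alone. For distant intergenic peaks these shares were 8.49% (7.59% to 9.50%) and 27.9% (26.4% to 29.5%), whose intervals do not meet those of the near-gene peaks (11.7% to 14% and 20.4% to 23.2%). The 413 peaks fell in 225 coding genes, and in 243 of them the gene that holds the summit was not the assigned gene. GALNT13, a glycosyltransferase gene, held 12 peaks, all of them assigned to RPRM, an arrest gene of the cell cycle; DPH6, of diphthamide synthesis, held 8, and TNRC6C, a partner of Argonaute proteins, held 7. The gene named for an intergenic peak is therefore the gene with the nearest start in the deposited annotation. It need not have the nearest RefSeq start. A peak assigned to PPP1R15B lay 19661 bp from its start and 13753 bp from that of PLEKHA6. The name is not a statement of the transcript that the peak came from.

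Enrichment differed little between these settings. A q-value under 0.05 was found at 32.2% of peaks in a RefSeq coding gene, 30.3% of those in a non-coding gene, 30.5% of the 548 that lay within 10 kb past a coding gene end, 37.5% of the 253 within 10 kb before a coding gene start (31.8% to 43.7%) and 29.7% of the 1317 further away. The order of the classes before a start and past an end rests on the distance chosen. Within 5 kb the share was 27.2% before a start (19.1% to 37.0%) and 35.2% past an end (29.9% to 40.8%). Within 20 kb it was 34.7% and 28.9%, in the order found at 10 kb. The intervals of these classes overlapped at each distance, so their order is not settled. A strand was known for 17668 of 20056 coding genes, so the classes before a start and past an end are undercounts. Each peak was put in a single class, with RefSeq genes first, then past an end, then before a start. A peak near both a start and the end of another gene was therefore counted as past an end. Of the 604 coding genes with an upstream peak outside every RefSeq body, 66.2% (62.4% to 69.9%) also had a peak in their own body, and of the 282 with a downstream one, 58.5% (52.7% to 64.1%) did. Genes assigned a distant intergenic peak did so in 60.4%, an interval (55.6% to 65.1%) that meets both, against 49.3% of all coding genes.

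The highest folds were not bound to one kind of place. The peak of highest fold, assigned to SETD7, a lysine methyltransferase gene, lay 40446 bp upstream of it at chr4:139597215-139597716, inside the non-coding gene LOC105377622. It had 34 RIP fragments over an input level of 0.326, a fold of 17.2 (12.1 to 23.7). A peak 3694 bp upstream of FBXL19, an F-box protein gene, at chr16:30918560-30919157 had 76 fragments over 2.07, a fold of 16.2 (12.8 to 20.2). NAPEPLD, which encodes a phospholipase that makes N-acylethanolamines, had its peak 4689 bp upstream (46 over 1.0, fold 15.3, 11.3 to 20.2). The summit of that peak lay inside the RefSeq coding gene LOC105375434. CELF6, a splicing regulator gene, had its peak 4835 bp upstream (30 over 0.414, fold 14.3, 9.89 to 20.1). The intervals of these peaks overlap one another, so their order is not settled.

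The rest of the highest included LINC01815 (fold 14, inside the non-coding gene LOC102724542), CREG2 (13.6) and NRSN2 (12.6). The homeobox gene MSX2 had a peak of fold 13.2, 3933 bp past its end. MSN, the actin linker moesin, had 12.7 inside the RefSeq body of MSN itself, and ANP32AP1 had 12.7 inside DPH6. FOXD4L5 (16.2, 106 RIP fragments) and FAM95C (12.8, inside ANKRD18A) completed them. FOXD4L5, FAM95C and their neighbours on chromosome 9 have near-identical copies, so reads there could have been placed on the wrong copy and these values are uncertain.

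Ordered by p-value, deep peaks came first. A peak 21051 bp past SLC25A10, the mitochondrial dicarboxylate carrier, had 134 RIP fragments over an input level of 6.0, a fold of 12.4 (10.4 to 14.7). The peak assigned to PLAAT2 had a fold of 8.49 over an input level of 9.77 and lay 3758 bp past the end of its neighbour PLAAT3; both encode phospholipid-acting enzymes. At BBC3, which encodes the apoptosis protein PUMA, a peak 10659 bp upstream had 160 over 18.0, a fold of 5.46 (4.65 to 6.36). Its summit lay inside the non-coding gene LOC124904731. Peaks assigned to BMS1P23 (fold 12.1, 79 fragments, inside the coding gene LOC107985915) and LOC101928381 (7.99, 123 fragments) also stood high in this order. Both lie in stretches of near-identical copies.

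**Figure D5:**
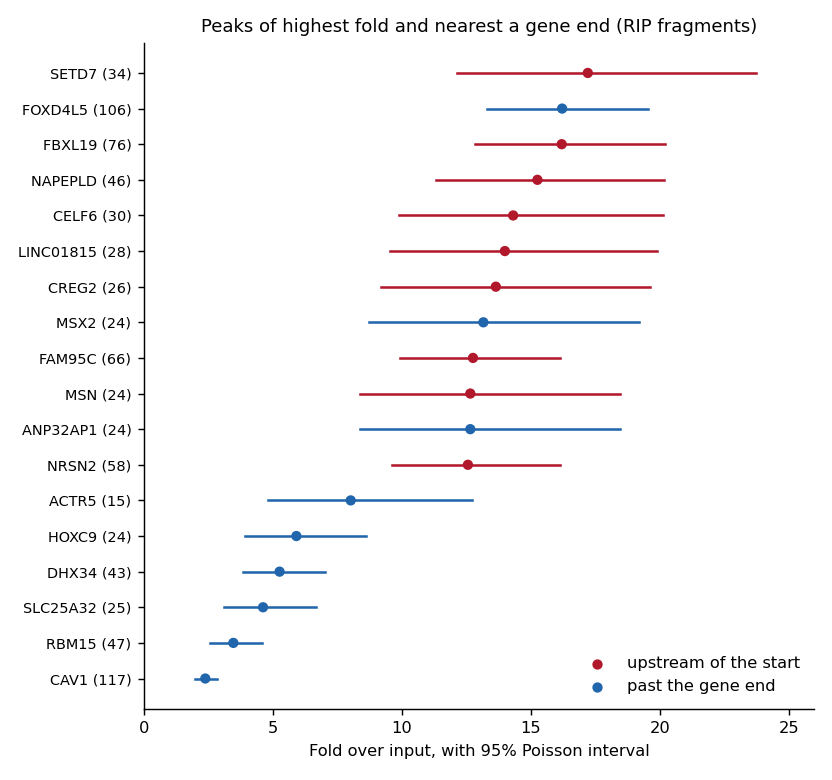
Fold over input of the 12 intergenic peaks of highest fold and the 6 nearest past a gene end, by assigned gene with the number of RIP fragments in brackets; lines are 95% Poisson intervals, red is upstream of the start and blue past the gene end. The highest fold is 17.2 at SETD7 and the lowest 2.37 at CAV1, which has 117 RIP fragments.

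More than 1 in 2 of these peaks had a close neighbour. Another peak summit lay within 5 kb of 52.2% of them (50.5% to 53.9%), against 51% of distant intergenic, 43.5% of intron, 54.9% of exon and 49.0% of 3' UTR peaks. The 3262 peaks with a gene symbol were assigned to 1830 genes, of which 1134 (62.0%) had 1 peak and 97 had 5 or more, together 633 peaks. The gene with most was LOC101928381, with 22 peaks, 14 past a q-value of 0.05, over chr9:63037879-65815113, a stretch known for near-identical copies. Without chromosome 9 30.6% of near-gene intergenic peaks had a q-value under 0.05.

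Clusters of 10 to 12 peaks ranged from 0 of 11 to 7 of 10 peaks past the threshold. RPRM had 12 peaks, of which 8 passed a q-value of 0.05, folds of 2.58 to 7.15 and 4 to 42 RIP fragments. MIR4713HG, a microRNA host gene, had 11 peaks with 0 past the threshold, folds of 1.76 to 3.38 and 2 to 13 fragments. ADAMTS6, a secreted metalloproteinase gene, had 10 upstream peaks, 5 of them past it, all inside the RefSeq bodies of LOC124900986 and the kinetochore gene CENPK. LINC02156 had 10 with 1 past it, CALCR, the calcitonin receptor gene, 10 with 5, and the pseudogene ALOX12P2 10 with 7, all downstream and with 12 to 36 RIP fragments. MIR4713HG had no peak above 13 RIP fragments, and ALOX12P2 none under 12.

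A pair of clusters chosen after their values were seen show the contrast of depth and fold. Within CAV2-DT, the divergent transcript of the caveolin gene CAV2, 7 of 7 peaks had a q-value under 0.05, with 36 to 158 RIP fragments over input levels of 8.29 to 31.0 but folds of only 1.86 to 4.87. Between OR2AT4, an olfactory receptor gene, and SLCO2B1, an organic anion transporter gene expressed in liver, 13 peaks spanned chr11:75103862-75142240, of which 12 were outside any RefSeq gene. Of them, 3 reached 72 to 80 RIP fragments over an input level of 5.0, with folds of 7.87, 8.51 and 8.72. Those 3 stood above the upper quartile of exon peaks, which was 49 RIP fragments.

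Of 39 hepatocyte genes, 4 were assigned 11 peaks in all, of which 6 had a q-value under 0.05. APOH, the plasma protein beta-2-glycoprotein I, had the strongest, 34432 bp upstream, with 72 RIP fragments over an input level of 4.0 and a fold of 9.44 (7.43 to 11.8), and a second 12723 bp upstream with 22 over 3.0 and a fold of 3.78 (2.46 to 5.59). FGG, a fibrinogen chain gene, had one of fold 3.54 (2.13 to 5.62, 15 over 2.0) inside LOC124900169. Of 15 hepatocyte markers 9 held a peak in their body, among them APOB, HNF4A and FOXA2, against 1 of 6 immune and 3 of 6 endothelial or stromal markers and 49.3% of all coding genes, so these counts do not tell the cell type; peaks are not levels, and they tell only that RNA was captured there.

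Of 27 genes of the m6A machinery, 3 were assigned 1 intergenic peak each, and all 3 had a q-value under 0.05. The readers IGF2BP2 and IGF2BP3 had theirs upstream, with 14 RIP fragments over an input level of 0.77 (fold 5.64, 3.34 to 9.08) and 10 over 1.0 (3.71, 2.04 to 6.4). RBM15, which helps recruit the methyltransferase, had one 598 bp past its end with 47 over 8.0 (3.46, 2.57 to 4.57). Among the CREB regulators, 1 of 24 genes had a peak, ATF1, at a fold of 2.34 (1.36 to 3.82) that did not reach the threshold. Immediate early factors had 6 peaks at 5 of 27 genes, of which only ATF3 passed, with 7 fragments over 0.246 (fold 4.41, 2.25 to 8.23); those at KLF4 and KLF6 had 4 and 5 fragments. These lists hold too few peaks to set their shares beside the 30.8% of the class.

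Larger families came nearer to it. Zinc finger genes named ZNF and a number were assigned 91 peaks at 50 of 509 genes, 34 with a q-value under 0.05 (37.4%, 28.1% to 47.6%). The highest folds were at ZNF91 (8.68), ZNF469 (8.20) and ZNF16 (8.17). The peaks of ZNF91 and ZNF469 lay inside the RefSeq bodies of those same genes. Genes named LINC and a number had 339 peaks, 10.4% of the class, at 174 of 2304 genes, 106 past the threshold (31.3%, 26.6% to 36.4%). They were led by LINC01815 (14, inside LOC102724542), LINC01410 (11.1) and LINC02431 (9.80, inside the non-coding gene LOC124900869). Genes named MIR and a number had 144 at 79 of 1870 genes, 33 past it (22.9%, 16.8% to 30.4%). They were led by MIR12128 (11.7, inside the coding gene GSE1) and MIR5707 (11.1). Ribosomal protein genes had 14 at 8 of 86, 3 past it, the highest at RPS29 (4.92). A RefSeq gene body held 42 of the 91 ZNF peaks, 97 of the 339 LINC peaks and 49 of the 144 MIR peaks. For the ribosomal protein genes it was 5 of 14, beside 34.5% of the class. Each family's interval held or touched the share of the whole class except that of the MIR names, whose upper bound of 30.4% lay just under it. Counted by gene type instead, the 146 peaks assigned to microRNA genes stood at 24.0% (17.8% to 31.5%), an interval that holds the share of the class.

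Chromosomes differed in both measures. Of their peaks, the near-gene intergenic ones made up 11% on X (9.43% to 12.7%), 10.9% on chromosome 21 and 10.4% on chromosome 9, and 5.35% on chromosome 13 (3.96% to 7.17%). The share with a q-value under 0.05 was highest on chromosome 8, at 43.4% (35.2% to 52.0%), and lowest on chromosome 18, at 16.9% (9.48% to 28.5%). Those intervals do not overlap, but they belong to the extremes of all chromosomes, picked after the values were seen. They also take peaks as independent, although many had a close neighbour. The densest megabases were chr9 from 65 Mb with 23 peaks, 13 of them past the threshold, and chr3 from 112 Mb with 21, 9 of them past it. At chr4 from 139 Mb only 2 of 15 passed, one of them the peak of highest fold, against 12 of 15 at chr7 from 116 Mb.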

How the data were processed

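The 1 m6A-RIP and 1 input library of HCCLM3 cells formed 2 groups of 1 library each. Per the submitters' processing notes, HISAT2 aligned the reads to hg38 and MACS2 called the peaks; versions, settings, duplicate removal and library depth were not stated in any source used. The authors' table holds annotated peaks with a fold, a linear ratio of RIP over input per the file headers. Damaged headers in the deposited file sit over a pair of columns read as −log10 p-value and −log10 q-value because 99.99% of the table's scores equal 10 times the first, rounded down, and its lowest value is 1.30. The score in the deposited table was used for this check only. Peaks are numbered to 39824, and 23 numbers are not among the 39801 used.

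RIP fragments and input level were solved from fold and p-value (pseudocount 1, Poisson, tolerance 0.001 in −log10 p). For 98.1% of the peaks described there was 1 solution, and without the library scaling 1.32% of all peaks could be solved. On data simulated from the same Poisson model with the fitted scaling, 100.0% of 1813 peaks were recovered. This checks the solving step and not the model. Peaks of 2 RIP fragments were not simulated, and the lowest input levels were rare among those that were. No test between conditions was possible, so shares have 95% Wilson intervals. Gene bodies and promoter windows came from RefSeq GRCh38.p14, which matched 3262 of 3266 peaks. Python 3.11.15, numpy 2.4.6, pandas 2.3.3 and scipy 1.17.1 were used.

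The peaks and gene lists were chosen with earlier results of these data known. Named were the 12 peaks of highest fold and the 6 nearest past a gene end (both with a q-value under 1e-5), the 8 of highest −log10 p, the 5 upstream peaks of highest fold, the 6 genes with most peaks and up to 4 peaks for each list. Alternatives were thresholds, distance limits, RefSeq bodies left out and, added after seeing the data, other near distances and chromosome 9 left out. Of the peaks so named, 1 is not reported here.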

Additional observations from a re-analysis of the deposited data

How the results depend on the processing

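Of 63 alternatives, 31 left the value inside its spread and 32 moved it. The share of all peaks that were near-gene intergenic, 8.21%, became 5.17% among peaks with a q-value under 0.05, 4.04% under 1e-5, 6.04% at a fold of 4 or more, 6.97% on at least 4 RIP fragments, 4.29% with a 20 kb limit, 11.1% with 100 kb and 5.40% without RefSeq bodies. Under the first 4 of these the median fold was 4.97, 6.87, 5.44 and 3.54, as a filter on the same values must raise it. The share with a q-value under 0.05 was 100% at a fold of 4 or more, 46.1% on at least 4 fragments and 32.6% within 20 kb. The downstream share was 27.1% within 20 kb, 36.4% within 100 kb and 37.2% without RefSeq bodies. The share of downstream peaks near the gene end was 54.9% under 0.05, 56.0% under 1e-5, 55.4% at a fold of 4 or more, 77.8% and 38.2% with limits of 20 and 100 kb, and 24.7% and 74.6% counted at 5 and 20 kb. The share with a neighbour was 41.9%, 31.6%, 35.0% and 50.4% under the 4 filters, where fewer peaks are left to be neighbours, and 33.3% and 65.9% at 2 and 10 kb. At 5 kb, chosen after seeing the data, the share with a q-value under 0.05 was 27.2% before a coding gene start and 35.2% past an end. That turned their order at 10 kb (37.5% and 30.5%), with overlapping intervals at both distances. At 20 kb, also chosen after seeing the data, the shares were 34.7% and 28.9%, in the order found at 10 kb. The cause was not tested.

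No paired analysis was possible because each group had 1 library, so none was left out. GGAC around summits was not run, since no genome was used here. At 3 RIP fragments a fold of 2.35 has an interval of 1.12 to 5.32, so the order of weak peaks cannot be read.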
